A study of Rattus norvegicus with 15 samples.

Results

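The genes described are 10 members of the Nrf2 pathway and the antioxidant enzymes of rat astrocytes, namely *Nfe2l2*, *Keap1*, *Hmox1*, *Nqo1*, *Gclc*, *Txnrd1*, *Txn1*, *Sod1*, *Sod2* and *Cat*, out of 32552 genes counted. They were chosen by name and Ensembl identifier, with earlier results of these data known. An identifier was kept when its chromosome in the deposited annotation was the one known for the gene, which held for 10 of 10. The measurement was bulk polyA RNA sequencing of primary astrocytes from the cerebral cortex of Sprague Dawley rats 1 to 2 days old, in 15 libraries that form 5 groups of 3. The control cells received vehicle for 30 min, and the cells of the other 4 groups received 100 µM H2O2 for 30 min. One of these 4 groups had no further treatment (H2O2), and the others were given, 24 h later, unmodified mitochondria isolated from cryopreserved rat placenta (mitochondria), the same mitochondria coated with the lipids DOTAP and DOPE (MitoCoat), or RNA extracted from the mitochondrial fraction and encapsulated in those lipids (MitoCoat-mRNA). RNA was collected 6 h after that step. The study's methods name 2 amounts of mitochondria and 1 of RNA, scaled to the volume of medium, without saying which amount of mitochondria went into the sequenced wells, and no sequenced group received lipid alone. The donor cells and the recipient cells were both from rat, so RNA carried in with mitochondria and RNA made by the astrocytes cannot be told apart in the counts of a gene. In bulk samples, fewer cells of a type and less RNA per cell cannot be told apart either.

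Nrf2, the protein encoded by *Nfe2l2*, is a transcription factor that is bound by Keap1 and marked for degradation under resting conditions. Oxidants and electrophiles modify cysteines of Keap1, Nrf2 then accumulates in the nucleus, and with small Maf proteins it binds antioxidant response elements near genes for detoxification, glutathione synthesis and thioredoxin recycling. Astrocytes are known for a strong Nrf2 response and for supplying glutathione precursors to neurons. Superoxide dismutases and catalase remove superoxide and H2O2 directly, and they are less uniformly under Nrf2 control.

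In the Rnor 6.0 annotation of the count files none of the 10 genes shares exon bases with another gene. The regulators are *Nfe2l2* (ENSRNOG00000001548, chr3:62497571-62524996, minus strand) and *Keap1* (ENSRNOG00000020878, chr8:22250518-22259779, minus strand). The inducible targets are *Hmox1* (ENSRNOG00000014117, chr19:14508616-14515456, plus strand) and *Nqo1* (ENSRNOG00000012772, chr19:38422164-38437180, plus strand). Glutathione synthesis is represented by *Gclc* (ENSRNOG00000006302, chr8:85059051-85097468, plus strand) and the thioredoxin system by *Txnrd1* (ENSRNOG00000009088, chr7:26946125-26984400, minus strand) and *Txn1* (ENSRNOG00000012081, chr5:75049747-75057752, minus strand). The enzymes that remove superoxide and peroxide are *Sod1* (ENSRNOG00000002115, chr11:30363280-30368862, plus strand), *Sod2* (ENSRNOG00000019048, chr1:47914759-47921587, minus strand) and *Cat* (ENSRNOG00000008364, chr3:93379874-93412058, minus strand). Exon length ran from 315 bases in *Txn1* to 3430 bases in *Txnrd1*.

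The libraries held between 35315654 and 46778663 counts, and 2.81% to 4.61% of the counts fell on the mitochondrial chromosome. The ranges of this share overlapped between the groups, except that mitochondria (3.180% to 3.470%) lay below MitoCoat (3.598% to 4.476%). Levels are given as counts per 1000000 counts (CPM) scaled by TMM, a factor that corrects for differences in library composition, and as mean ± SD with n = 3. The smallest count of any of the 10 genes in any library was 2660, for *Keap1*. Fold changes, their 95% confidence intervals and adjusted p-values are from edgeR's quasi-likelihood test on the 6 libraries of each comparison with Benjamini-Hochberg adjustment over all genes tested, and a gene was called at an adjusted p under 0.05. All 10 genes passed the filter on low counts in every comparison. The study calls the 3 samples of a group biological replicates. Which cultures or animals they came from is not given in the sources used here, and the p-values measure the spread between these samples.

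Per kilobase of exon, which allows levels to be compared between genes, *Txn1* (thioredoxin, a small disulfide reductase) and *Nqo1* (a quinone reductase) were the most abundant of the 10 in control cells, at 641 ± 105 and 638 ± 138 CPM per kb. *Sod1* (the cytosolic copper-zinc superoxide dismutase) followed at 521 ± 34.7 CPM per kb. *Hmox1* (heme oxygenase 1, which breaks heme down to biliverdin, iron and carbon monoxide) was at 155 ± 11.9 CPM per kb and *Gclc* (the catalytic subunit of the enzyme that limits glutathione synthesis) at 130 ± 9.64 CPM per kb. *Nfe2l2*, *Sod2* (the manganese superoxide dismutase of mitochondria) and *Txnrd1* (cytosolic thioredoxin reductase) lay between 58.3 and 65.4 CPM per kb. *Cat* (catalase, which splits H2O2 to water and oxygen) had 36.4 ± 2.73 CPM per kb, and *Keap1* was the least abundant at 23.9 ± 1.43 CPM per kb. Among the 32552 genes, *Txn1* ranked 91 and *Keap1* ranked 3652 by this level. The place of *Txn1* rests on its annotated exon length of 315 bases. Before division by length its control mean was 202 CPM, against 341 for *Sod1*, 396 for *Gclc* and 243 for *Hmox1*.

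**Figure D1:**
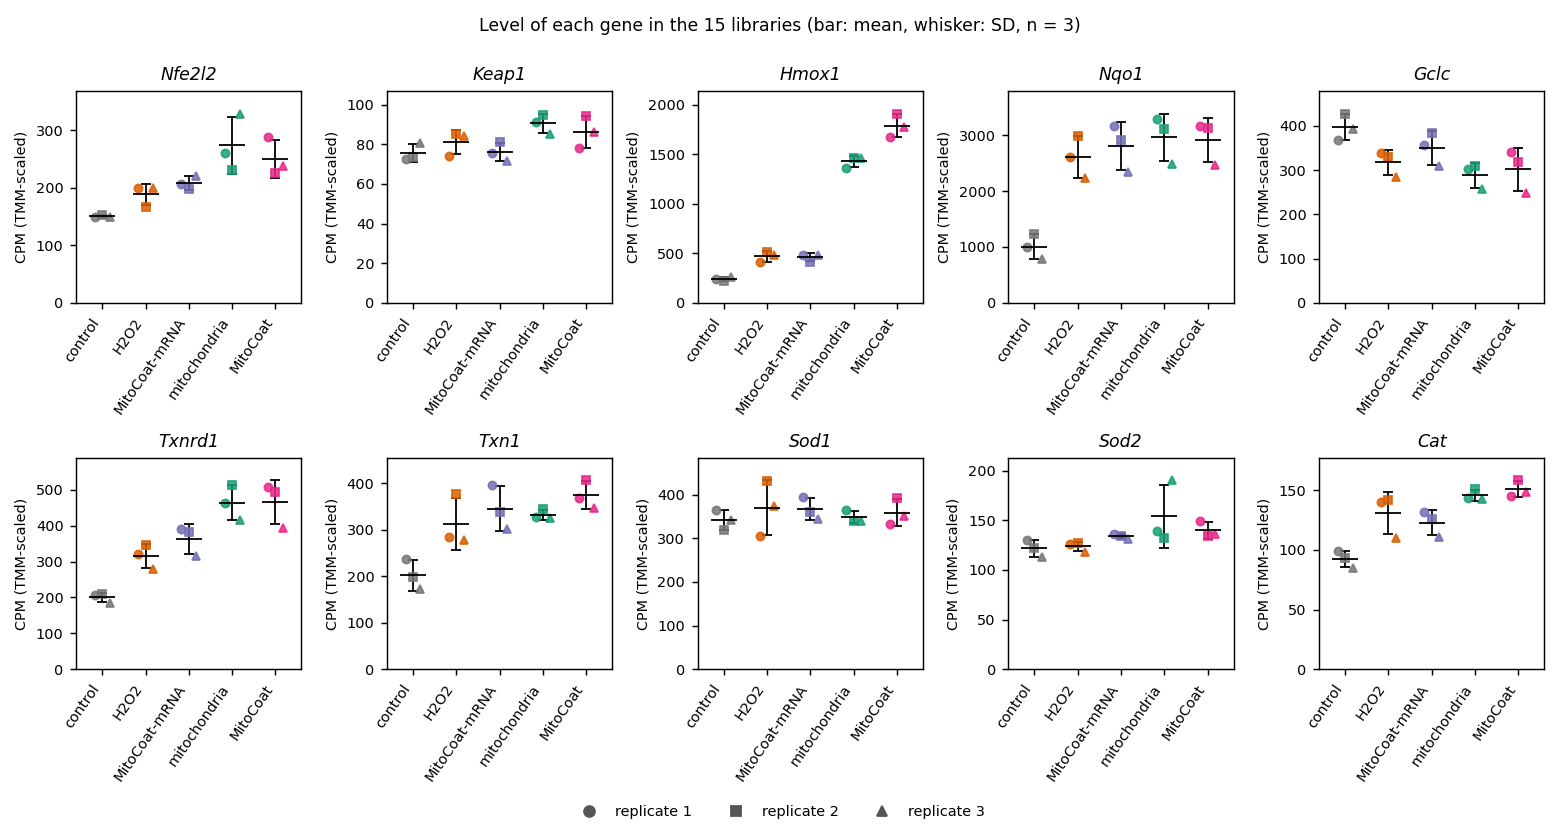
Level of each of the 10 genes in the 15 libraries, as TMM-scaled CPM on a linear axis from 0, with one panel per gene and one column per group. Points are libraries, shaped by replicate number, with a bar at the mean and whiskers of 1 SD (n = 3). *Hmox1* rose from 243 in control to 472 with H2O2 and stood at 1428 and 1785 with mitochondria and MitoCoat, whereas *Nqo1* rose from 1007 to 2610 with H2O2 and lay between 2804 and 2956 in the 3 treated groups.

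H2O2 against control addresses what the oxidant left behind 30 h later, without any treatment. *Nqo1*, *Hmox1*, *Txnrd1*, *Txn1* and *Cat* rose, and none of the 10 genes was called lower. The background over the 15650 genes tested was 2.97% called higher and 4.22% called lower. It is given for scale and is no test, since the genes were chosen with earlier results of these data known. These calls moved with the libraries used. Without control replicate 2, 145 genes were called higher and 231 lower, and 3 of the 10 genes higher. The groups did not overlap for 6 genes that were higher and 1 that was lower, where 13.2% and 14.5% of all genes tested did so. The median log2 fold change was 0.42 over the 10 genes and 0.01 over all genes tested.

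*Nqo1* had the greatest change of the 10. Its levels in the control libraries were 1000, 1228 and 793 CPM, and in the H2O2 libraries they were 2609, 2989 and 2234 CPM. The groups did not overlap, and the lowest H2O2 library was well above the highest control library. The fold change was 2.62 (95% CI 1.98 to 3.45), a log2 fold change of 1.39 (SE 0.18) with an adjusted p of 0.0038 from edgeR. A larger log2 fold change was found in 1.10% of the genes tested.

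*Hmox1* had 240, 225 and 262 CPM in the control libraries and 410, 519 and 488 CPM in the H2O2 libraries. These groups did not overlap either. The fold change was 1.96 (95% CI 1.64 to 2.35), with an adjusted p of 0.0026 from edgeR, and a larger log2 fold change was found in 2.56% of the genes tested.

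*Txnrd1* had 205, 210 and 185 CPM in control and 321, 345 and 280 CPM with H2O2, a fold change of 1.59 (95% CI 1.35 to 1.88) with an adjusted p of 0.0088. Its substrate *Txn1* had 237, 198 and 171 CPM in control and 284, 377 and 277 CPM with H2O2, a fold change of 1.56 (95% CI 1.22 to 2.00) with an adjusted p of 0.044. *Cat* had 98.9, 93.5 and 85.1 CPM in control and 140, 142 and 110 CPM with H2O2, a fold change of 1.43 (95% CI 1.19 to 1.72) with an adjusted p of 0.035. For each of these 3 genes every H2O2 library was above every control library. The calls of *Nqo1*, *Hmox1* and *Txnrd1* stood in all 6 fits that left out 1 library. *Txn1* was called in 1 of these fits, without control replicate 1, and its adjusted p ranged from 0.026 to 0.16. *Cat* was called in 2 of them, without control replicate 1 and without H2O2 replicate 3, and its adjusted p ranged from 0.025 to 0.14.

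The other 5 genes were not called. *Nfe2l2* itself had 150, 153 and 150 CPM in control and 200, 167 and 199 CPM with H2O2, groups that did not overlap, with a fold change of 1.26 (95% CI 1.09 to 1.45) and an adjusted p of 0.063. DESeq2, the study's own test, gave *Nfe2l2* an adjusted p of 0.027 on the same 6 libraries, the lowest of 6 other settings that reached up to 0.10. *Gclc* was the only one of the 10 with a fold change under 1 and with groups that did not overlap in that direction, at 396 ± 29.4 CPM in control and 318 ± 28.5 CPM with H2O2. Its fold change was 0.81 (95% CI 0.69 to 0.95), with an adjusted p of 0.12 from edgeR and 0.048 from DESeq2, the lowest of 6 other settings. For *Keap1*, *Sod1* and *Sod2* the fold changes were 1.08 (95% CI 0.94 to 1.25), 1.09 (95% CI 0.89 to 1.34) and 1.02 (95% CI 0.90 to 1.17). The upper ends of these intervals were 1.17-fold for *Sod2* and 1.34-fold for *Sod1*, without adjustment for the number of genes.

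**Figure D2:**
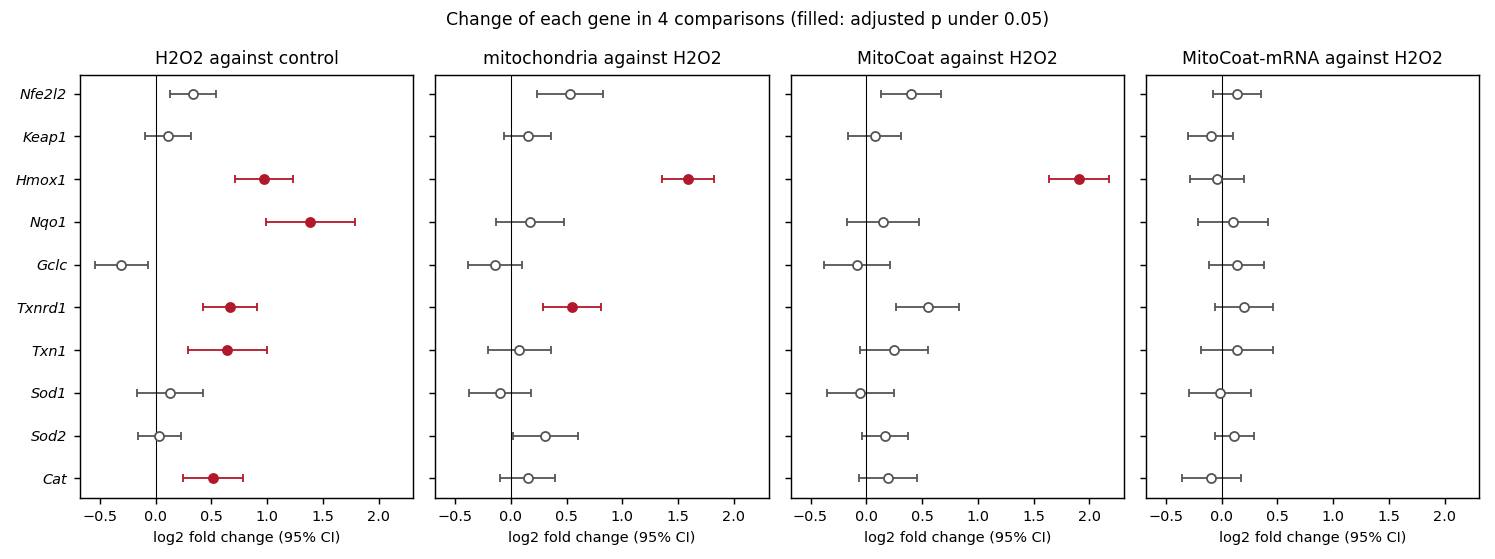
Log2 fold change of each gene in 4 comparisons, one panel each, with whiskers for the 95% CI from edgeR; filled points have an adjusted p under 0.05. With H2O2 5 genes are filled, with mitochondria against H2O2 *Hmox1* (1.59) and *Txnrd1* (0.55), with MitoCoat against H2O2 *Hmox1* (1.91), and with MitoCoat-mRNA against H2O2 none. The last 3 panels share the H2O2 libraries, which are also the numerator of the panel on the left.

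The question of the treatments is which of these genes moved again when mitochondria, coated mitochondria or the encapsulated RNA were added to stressed cells. *Hmox1* rose with unmodified mitochondria and with MitoCoat. It had 1364, 1459 and 1462 CPM with mitochondria and 1677, 1907 and 1772 CPM with MitoCoat, against 410 to 519 CPM with H2O2 alone. In both groups every library was above every library of the control, H2O2 and MitoCoat-mRNA groups. Against H2O2, the fold change with mitochondria was 3.01 (95% CI 2.55 to 3.55), with an adjusted p of 3.2e-05 from edgeR. The fold change with MitoCoat was 3.76 (95% CI 3.12 to 4.52), with an adjusted p of 6.3e-05. A larger log2 fold change was found in 0.801% and 0.553% of the genes tested in these comparisons. Both calls stood in every fit that left out 1 library, with log2 fold changes of 1.51 to 1.67 for mitochondria and 1.82 to 1.99 for MitoCoat.

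MitoCoat-mRNA did not give such a change. *Hmox1* had 482, 417 and 485 CPM in that group, which lay among the H2O2 libraries. The fold change against H2O2 was 0.97 (95% CI 0.82 to 1.15), with an adjusted p of 0.9996 from edgeR. The direct comparison of the treatments gave *Hmox1* a fold change of 3.11 (95% CI 2.73 to 3.54, adjusted p = 4.5e-06) for mitochondria against MitoCoat-mRNA and of 3.84 (95% CI 3.32 to 4.45, adjusted p = 1.1e-05) for MitoCoat against MitoCoat-mRNA. *Hmox1* was the 1 gene of the 10 called higher in each of these 2 comparisons without a block, in which 2.14% and 1.57% of all genes tested were called higher. The replicate number was taken to pair mitochondria with MitoCoat-mRNA. A fit blocked by it, added after the data were seen, called 652 genes higher and 489 lower in place of 334 and 220. In that fit edgeR also called *Txnrd1* (adjusted p = 0.0062) and *Nfe2l2* (adjusted p = 0.0086) higher and *Gclc* (adjusted p = 0.029) lower with mitochondria.

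The levels of *Hmox1* therefore ran in the order control, MitoCoat-mRNA, H2O2, mitochondria and MitoCoat. MitoCoat-mRNA and H2O2 overlapped. MitoCoat was above mitochondria in 3 of 3 pairs of the same replicate number and without overlap, by 1.25-fold (95% CI 1.10 to 1.41), with an unadjusted p of 0.0028 and an adjusted p of 0.89 from edgeR. Blocked by replicate number, which was taken to pair these 2 groups, the adjusted p was 0.26, the lowest of 6 other settings. The difference between coated and unmodified mitochondria was thus not called for *Hmox1* after adjustment over all genes.

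Some genes had counts with mitochondria or MitoCoat and none in the control and H2O2 libraries. A set of 55 genes, whose 0 counts in control and H2O2 were fixed by the way they were picked and which had counts in all 3 libraries of the mitochondria or MitoCoat group, summed to 26.1, 24.2 and 6.98 CPM with mitochondria and to 87.5, 63.9 and 16.3 CPM with MitoCoat. With MitoCoat-mRNA the sum was 0.407 to 0.543 CPM. In the same replicates *Hmox1* was at 1364, 1459 and 1462 CPM with mitochondria and at 1677, 1907 and 1772 CPM with MitoCoat. The part of this RNA in the level of *Hmox1* was not tested.

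*Nqo1*, the other strongly raised target after H2O2, stayed near its H2O2 level in all treated groups. It had 3283, 3105 and 2480 CPM with mitochondria, 3156, 3127 and 2458 CPM with MitoCoat, and 3163, 2915 and 2336 CPM with MitoCoat-mRNA. These libraries overlapped the H2O2 libraries in each case. The fold changes against H2O2 were 1.13 (95% CI 0.91 to 1.39), 1.11 (95% CI 0.89 to 1.39) and 1.07 (95% CI 0.86 to 1.33), so a rise above 1.39-fold lies outside all 3 intervals. Replicate 3 had the lowest *Nqo1* level in each of the 5 groups, and the same held for *Txnrd1*.

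The ratio of *Hmox1* to *Nqo1* within a library does not depend on scaling between libraries. Counted per base of exon, it was 0.254 ± 0.075 in control, 0.185 ± 0.032 with H2O2 and 0.169 ± 0.035 with MitoCoat-mRNA. It was 0.496 ± 0.090 with mitochondria and 0.626 ± 0.096 with MitoCoat. The lowest library of the last 2 groups was at 0.419 and the highest of the other 3 groups at 0.333, so these sets of libraries did not overlap. This ratio and the others given here were chosen after their values were seen and carry no test.

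**Figure D3:**
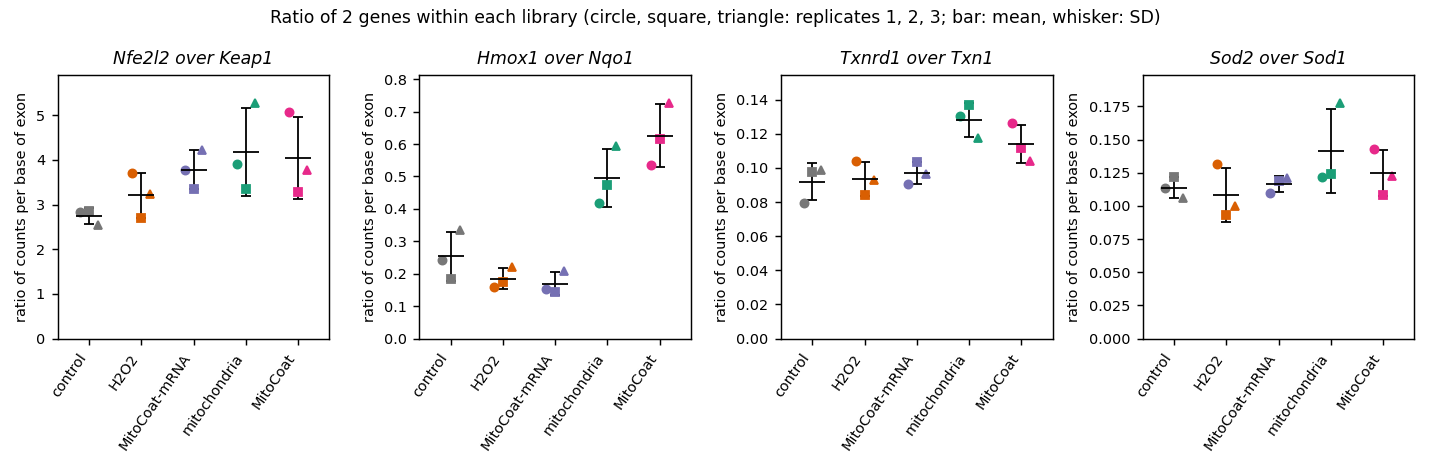
Ratio of 2 genes within each library, in counts per base of exon, on linear axes from 0, for *Nfe2l2* over *Keap1*, *Hmox1* over *Nqo1*, *Txnrd1* over *Txn1* and *Sod2* over *Sod1*. Points are libraries, bars are means and whiskers are SD (n = 3). *Hmox1* over *Nqo1* sits between 0.144 and 0.333 in control, H2O2 and MitoCoat-mRNA and between 0.419 and 0.727 with mitochondria and MitoCoat.

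Of the thioredoxin system, the reductase *Txnrd1* rose again with mitochondria, and *Txn1* was not called. *Txnrd1* had 462, 513 and 415 CPM with mitochondria and 507, 493 and 394 CPM with MitoCoat, all above the highest H2O2 library at 345 CPM. The fold change with mitochondria against H2O2 was 1.46 (95% CI 1.22 to 1.75), with an adjusted p of 0.029. That call was held in 2 of 6 fits that left out 1 library and was lost without mitochondria replicate 1 or 2 or without H2O2 replicate 1 or 3, with adjusted p-values between 0.026 and 0.15. With MitoCoat the fold change against H2O2 was of the same size, 1.46 (95% CI 1.20 to 1.79), with an adjusted p of 0.053 that missed the threshold in edgeR. DESeq2 on these 6 libraries gave 0.0010, and the adjusted p ranged from 0.00038 to 0.20 over 7 other settings, the highest with MitoCoat-mRNA as the reference. *Txnrd1* stood at 363 ± 41.1 CPM with MitoCoat-mRNA. Against that group, the fold change with mitochondria was 1.28 (95% CI 1.08 to 1.51, adjusted p = 0.13). Blocked by the replicate number taken to pair these groups, the adjusted p was 0.0062. The fold change with MitoCoat against MitoCoat-mRNA was 1.27 (95% CI 1.05 to 1.53, adjusted p = 0.20). MitoCoat and mitochondria differed by a fold change of 1.00 (95% CI 0.84 to 1.19) for *Txnrd1*.

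*Txn1* had 332 ± 10.6 CPM with mitochondria, 374 ± 29.9 CPM with MitoCoat and 345 ± 48.0 CPM with MitoCoat-mRNA, against 313 ± 55.9 CPM with H2O2. Its fold changes against H2O2 were 1.05 (95% CI 0.87 to 1.28), 1.19 (95% CI 0.96 to 1.47) and 1.10 (95% CI 0.88 to 1.37). The ratio of *Txnrd1* to *Txn1* per base of exon was 0.0935 ± 0.010 with H2O2, 0.128 ± 0.010 with mitochondria and 0.114 ± 0.011 with MitoCoat. The H2O2 and mitochondria libraries did not overlap in this ratio, with a highest value of 0.104 and a lowest value of 0.117.

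The promoters of the 2 genes with a match before the start are shown because an antioxidant response element is the sequence through which Nrf2 acts, together with that of *Nqo1*, the most abundant of the 10 per kb of exon in the H2O2 libraries. They are the 250 bases before the start site in the RefSeq promoter table, on assembly GRCr8 and in the direction of the gene. These coordinates are of another assembly than those of the counts. Elements farther from the start were not searched for. The lack of a match, as in *Nqo1*, therefore does not show that a gene lacks an element. The searched core was TGACNNNGC on both strands, and capitals mark its matches, which here read on the strand opposite to the gene as TGACAAAGC in *Txnrd1*, 78 bases before the start, and as TGACCCTGC in *Sod2*, 35 bases before the start.
Txnrd1, chr7:22755905-22756154, minus strand: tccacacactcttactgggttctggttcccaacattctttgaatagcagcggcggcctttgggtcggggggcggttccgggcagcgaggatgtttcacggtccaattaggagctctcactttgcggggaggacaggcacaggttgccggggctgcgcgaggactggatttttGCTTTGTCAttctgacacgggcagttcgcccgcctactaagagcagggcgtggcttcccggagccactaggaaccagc
Sod2, chr1:50050169-50050418, minus strand: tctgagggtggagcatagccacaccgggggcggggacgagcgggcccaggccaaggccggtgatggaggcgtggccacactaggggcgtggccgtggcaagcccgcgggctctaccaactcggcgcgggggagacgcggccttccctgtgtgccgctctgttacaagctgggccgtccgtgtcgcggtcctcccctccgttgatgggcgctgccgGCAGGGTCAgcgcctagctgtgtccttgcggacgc
Nqo1, chr19:52220268-52220517, minus strand: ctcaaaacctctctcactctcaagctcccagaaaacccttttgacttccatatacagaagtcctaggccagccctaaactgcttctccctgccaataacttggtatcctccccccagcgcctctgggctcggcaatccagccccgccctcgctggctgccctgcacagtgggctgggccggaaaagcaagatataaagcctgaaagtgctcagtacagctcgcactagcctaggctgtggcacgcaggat
The table held promoters for 9 of the 10 genes, with *Hmox1* the gene without an entry. They came to 10 promoters, since *Txnrd1* had a second one, whose 250 bases before the start lie at chr7:22764852-22765101 and which held no match. In windows of 300 bases, 3 of these 10 promoters held the core, the other being that of *Nfe2l2*, where the match began 39 bases after the start. Of all 33469 promoters of that length in the table, 12.1% held it. The AP-1 site TGANTCA, which overlaps longer forms of the element, was found in 0 of the 10 promoters and in 7.33% of all promoters. *Txnrd1*, in 1 of its 2 promoters, and *Sod2* share the core and differed in the counts, since *Txnrd1* rose with H2O2 and *Sod2* was not called.

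*Nfe2l2*, the gene of the regulator, had 261, 232 and 329 CPM with mitochondria, 289, 226 and 238 CPM with MitoCoat and 207, 198 and 221 CPM with MitoCoat-mRNA. All libraries of the mitochondria and MitoCoat groups were above all H2O2 libraries, whereas MitoCoat-mRNA overlapped with H2O2. The fold change with mitochondria against H2O2 was 1.44 (95% CI 1.18 to 1.77), with an adjusted p of 0.062 from edgeR without a block. Blocked by replicate number, which was taken to pair these 2 groups, the adjusted p was 0.00067. Over 7 other settings it ranged from 0.00067 to 0.12 and was called in 5. With MitoCoat it was 1.32 (95% CI 1.10 to 1.59), with an adjusted p of 0.13 from edgeR and of 0.042 from DESeq2, within 0.024 to 0.29 over 7 other settings. With MitoCoat-mRNA it was 1.10 (95% CI 0.95 to 1.28). *Keap1*, the gene of its inhibitor, had 81.2 ± 6.01 CPM with H2O2, 90.5 ± 4.77 CPM with mitochondria, 86.0 ± 8.03 CPM with MitoCoat and 76.0 ± 4.59 CPM with MitoCoat-mRNA. Its fold changes against H2O2 lay between 0.93 and 1.11, none called. The ratio of *Nfe2l2* to *Keap1* per base of exon was 2.74 ± 0.17 in control and 3.21 ± 0.51, 3.78 ± 0.43, 4.18 ± 0.99 and 4.05 ± 0.92 in the H2O2, MitoCoat-mRNA, mitochondria and MitoCoat groups. The lowest MitoCoat-mRNA, mitochondria and MitoCoat libraries, at 3.35, 3.35 and 3.29, were above the highest control library at 2.85. All of these treated groups overlapped the H2O2 libraries, which ran from 2.69 to 3.70.

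For *Gclc*, *Sod1*, *Sod2* and *Cat*, no treatment was called different from H2O2. *Gclc* had 289 ± 28.2, 302 ± 48.7 and 350 ± 38.0 CPM with mitochondria, MitoCoat and MitoCoat-mRNA, and each group overlapped the H2O2 libraries. *Cat* had 146 ± 4.5, 151 ± 6.81 and 123 ± 10.5 CPM, with fold changes against H2O2 of 1.11 (95% CI 0.93 to 1.32), 1.15 (95% CI 0.96 to 1.37) and 0.94 (95% CI 0.78 to 1.13). *Sod1* had group means between 341 and 370 CPM over all 5 groups, the narrowest relative range of the 10 genes. *Sod2* had 139, 133 and 190 CPM with mitochondria, and replicate 3 stood apart from the other two libraries. Its fold change against H2O2 was 1.24 (95% CI 1.01 to 1.52) with an adjusted p of 0.33. In that same library *Nfe2l2* had its highest level of all 15 libraries, at 329 CPM.

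In total, 2 of the 10 genes were called higher with mitochondria against H2O2, where 1.86% of the 15613 genes tested were called higher and 1.73% lower, and 1 of the 10 with MitoCoat against H2O2, where 1.47% of 15724 were called higher and 1.58% lower. None of the 10 was called lower in either. Blocked by replicate number, 3 of the 10 were called higher with mitochondria, *Nfe2l2* being the gene gained, among 643 genes higher and 600 lower. The same block gave 3 of the 10 higher with MitoCoat, among 394 higher and 530 lower. Groups did not overlap for 6 genes that were higher with mitochondria and for 5 that were higher with MitoCoat, against 10.1% and 11.2% of all genes tested. The median log2 fold changes of the 10 genes were 0.16 and 0.18, against -0.01 and 0.00 over all genes tested. With MitoCoat-mRNA against H2O2, edgeR called 0 of the 10 and 0% of the 15506 genes tested, DESeq2 also called 0 genes, and 463 genes but none of the 10 had an unadjusted p under 0.05. The half-width of the 95% CI of the 10 genes in that comparison had a median of 0.25 on the log2 scale. With MitoCoat against mitochondria, edgeR without a block called 0 of the 10 and 0% of the 15731 genes tested. Blocked by replicate number, it called 5 genes higher and none of the 10. DESeq2 called 3 genes in all and none of the 10. In the edgeR fit without a block, 779 genes, *Hmox1* among the 10, had an unadjusted p under 0.05.

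**Figure D4:**
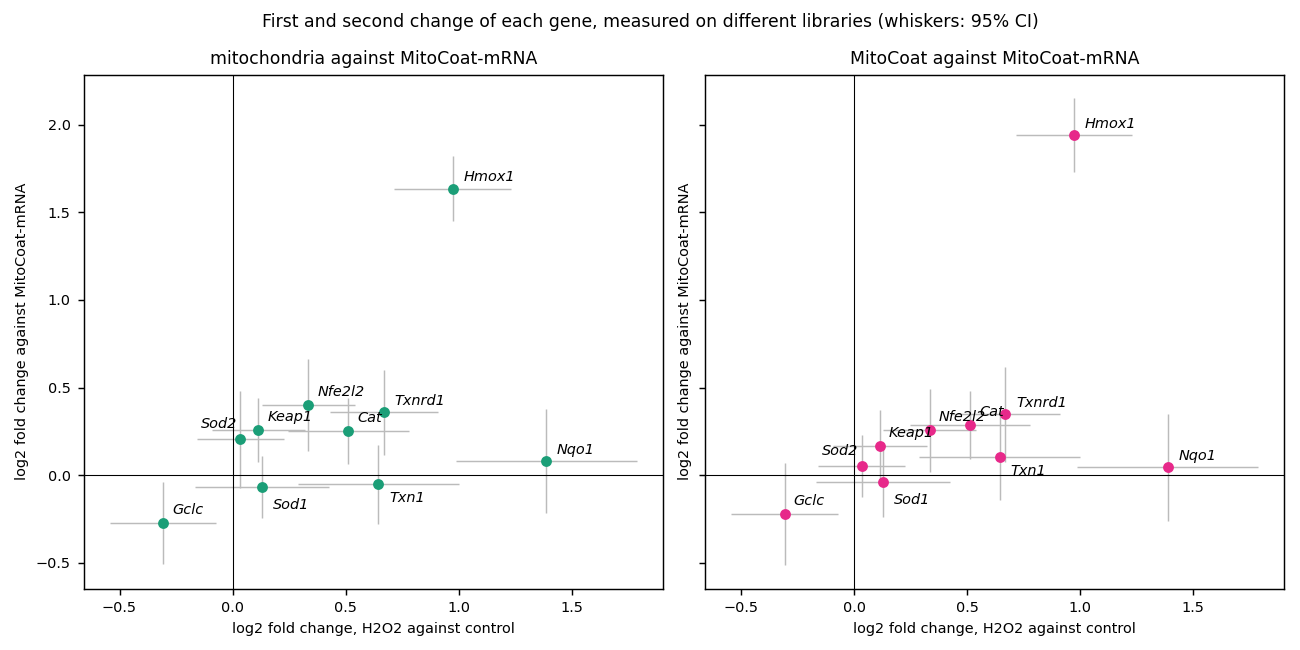
Log2 fold change of each gene for H2O2 against control (horizontal) and for mitochondria (left) or MitoCoat (right) against MitoCoat-mRNA (vertical), so that no library is used on both axes; whiskers are 95% CI from edgeR. *Nqo1* lies far right and near 0 on the vertical axis (1.39 and 0.08 or 0.04), and *Hmox1* lies high on both (0.97 and 1.64 or 1.94).

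Against the unstressed control, the treated groups show how far each gene stood from its resting level 30 h after H2O2. These comparisons share the control libraries with each other and with H2O2 against control. With mitochondria, 7 of the 10 genes were higher and 1 was lower than in control, where 10.3% and 12.2% of the genes tested were called. With MitoCoat, 6 were higher and 1 was lower, where 11% and 13.1% were. With MitoCoat-mRNA, 6 were higher and none was lower, where 7.18% and 8.72% were. Blocked by replicate number, that comparison also called *Gclc* lower and *Sod2* higher, among 2705 genes higher and 3051 lower. Without the block, the lists were as follows. *Nfe2l2*, *Hmox1*, *Nqo1*, *Txnrd1*, *Txn1* and *Cat* were the genes higher in all 3 groups.

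*Hmox1* was 5.89-fold (95% CI 5.11 to 6.78) and 7.30-fold (95% CI 6.21 to 8.59) above control with mitochondria and MitoCoat, and 1.91-fold (95% CI 1.65 to 2.19) above it with MitoCoat-mRNA. *Nqo1* was 2.94-fold, 2.87-fold and 2.80-fold above control in these groups. *Txnrd1* was 2.32-fold, 2.31-fold and 1.82-fold above it. *Nfe2l2* was 1.81-fold (adjusted p = 0.0011), 1.65-fold (adjusted p = 0.0014) and 1.39-fold (adjusted p = 0.0028) above control. With H2O2 alone it was 1.26-fold above control and not called in edgeR (adjusted p = 0.063). MitoCoat-mRNA against H2O2 was 1.10-fold (95% CI 0.95 to 1.28) for this gene and not called. The calls of these 4 genes in the treated groups stood in every fit that left out 1 library. *Cat* was 1.58-fold, 1.62-fold and 1.33-fold above control, and its call with MitoCoat-mRNA (adjusted p = 0.018) was lost without MitoCoat-mRNA replicate 1 or 2 or control replicate 2 or 3, with adjusted p-values up to 0.073.

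*Gclc* went the other way. It was 0.73-fold of control with mitochondria (95% CI 0.63 to 0.85, adjusted p = 0.010) and 0.76-fold with MitoCoat (95% CI 0.62 to 0.92, adjusted p = 0.046), with no overlap with the control libraries in either group. With MitoCoat-mRNA it was 0.89-fold (95% CI 0.76 to 1.04, adjusted p = 0.28). The adjusted p was 0.030 when blocked by replicate number, which was taken to pair these 2 groups. In the same blocked fit *Sod2* had an adjusted p of 0.045, against 0.22 without the block, at a fold change of 1.10. The MitoCoat call of *Gclc* was lost without MitoCoat replicate 2 or 3 or control replicate 2 or 3, with adjusted p-values up to 0.16, whereas the mitochondria call stood in all 6 fits. *Keap1* was 1.20-fold above control with mitochondria (95% CI 1.06 to 1.36, adjusted p = 0.0465). That call was held in 1 of 6 fits, the one without mitochondria replicate 3, and was lost without a filter on low counts (adjusted p = 0.054). *Sod2* was 1.26-fold of control with mitochondria (95% CI 1.03 to 1.56) and was not called by edgeR on these 6 libraries (adjusted p = 0.0997). DESeq2 on the same 6 libraries gave an adjusted p of 0.0497, and it ranged from 0.023 to 0.10 over 6 other settings, of which 3 called the gene. Without mitochondria replicate 3 the log2 fold change of *Sod2* was 0.17 in place of 0.34, and no edgeR fit that left out 1 library called it.

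**Figure D5:**
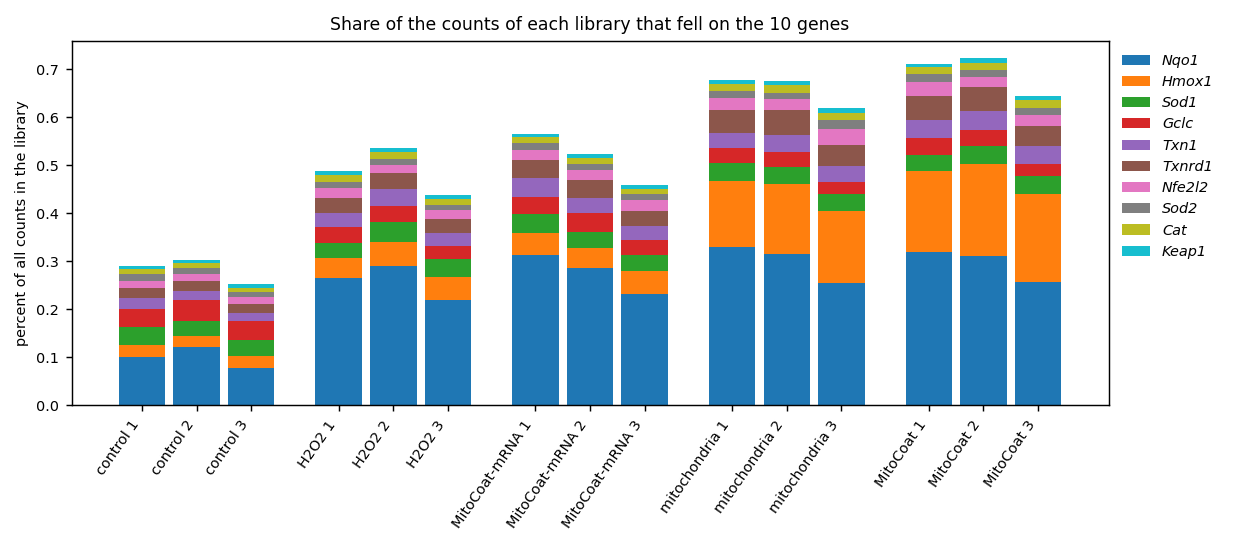
Share of each library's counts that fell on the 10 genes, in percent, stacked by gene, for the 15 libraries. The total rises from 0.252% to 0.303% in control to 0.437% to 0.535% with H2O2, and the bars of mitochondria and MitoCoat reach 0.618% to 0.723%, mainly through *Hmox1*.

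Taken over all 10 genes, the share of a library's counts was 0.282% ± 0.026 in control, 0.487% ± 0.049 with H2O2, 0.516% ± 0.054 with MitoCoat-mRNA, 0.658% ± 0.034 with mitochondria and 0.693% ± 0.043 with MitoCoat. *Nqo1* and *Hmox1* alone made up 44.0% ± 3.40 of the counts of the 10 genes in control, 62.5% ± 1.26 with H2O2, 62.3% ± 1.31 with MitoCoat-mRNA, 67.6% ± 1.91 with mitochondria and 68.8% ± 0.49 with MitoCoat. The share of *Hmox1* in all counts went from 0.0466% ± 0.0045 with H2O2 to 0.145% ± 0.0067 with mitochondria and 0.181% ± 0.011 with MitoCoat, while that of *Nqo1* was 0.258% ± 0.036, 0.300% ± 0.040 and 0.296% ± 0.034 in these groups. Control libraries did not overlap with any other group in the share of the 10 genes, and H2O2 and MitoCoat-mRNA overlapped with each other but not with mitochondria or MitoCoat.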

How the data were processed

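Total RNA from primary rat astrocytes was sequenced by the authors as polyA libraries. Per the labels and the study's methods, reads were trimmed with Trimmomatic 0.36, aligned to Rnor 6.0 with STAR 2.5.2b and counted with featureCounts of Subread 1.5.2 as uniquely mapped reads on exons. The authors deposited raw counts for 32552 Ensembl genes, one file per sample; 1 further file was identical to a sample's file and was not used here. Strand was used in counting where applicable, per the study's methods, and whether it applied to these libraries is not given in the sources used here. The extraction text in the labels speaks of mitochondria-enriched fractions, and RNA of the astrocytes, as in the study's account, was assumed.

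In R 4.3.3, edgeR 4.0.16 was run on the 6 samples of each comparison and over all genes, with filterByExpr, TMM factors and its quasi-likelihood F test. Alternatives were RLE size factors, no filter, DESeq2 1.42.0 (on 6 or 15 samples), edgeR on 15 samples, a replicate block, each library left out and MitoCoat-mRNA as reference; the block for comparisons with that reference was added after the data were seen. The tests were first run on simulated data. Same-numbered samples carry no stated link. The number was taken to pair 2 groups where all 3 correlations of deviations from the group means exceeded 0.1 over 16631 genes. That held for mitochondria against H2O2 (0.22 to 0.26), MitoCoat-mRNA against H2O2, MitoCoat against mitochondria, MitoCoat-mRNA against control and mitochondria against MitoCoat-mRNA. Mitochondria met this rule with both H2O2 and MitoCoat, which did not meet it with each other (-0.064 to 0.22). The rule therefore does not show that samples shared a culture or batch. Samples of a group were not copies of each other (ratio of chi-square to degrees of freedom 12.1 to 70.4 over 15 pairs). All 10 genes are named; they and the lists were chosen with earlier results of these data known. The files list identifiers alone and 0 matched the gene table, so a wider pathway list, cell type markers (astrocyte identity included), and genes with like patterns were not analysed here. Figures were drawn with matplotlib 3.10.9.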

Additional observations from a re-analysis of the deposited data

How the results depend on the processing

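The direction and call of *Hmox1*, *Nqo1* and *Txnrd1* for H2O2 against control, and of *Hmox1* for mitochondria and MitoCoat against H2O2, were the same under every alternative run. Of the named-gene results, 913 kept direction and call, 26 gained a call, 30 lost one and 31 changed sign, none of these last called. Where a count moved by over 1.5 times, the cause was not tested. DESeq2 on 6 samples called 715 genes higher and 1066 lower for H2O2 against control (1 of the 10 genes lower, *Gclc*), 460 and 423 for mitochondria against H2O2, 407 and 495 for MitoCoat against H2O2 (3 of the 10 higher) and 2 and 1 for MitoCoat against mitochondria. On 15 samples it called 1065 and 1310, 565 and 522, and 620 and 794 (3 of the 10 higher) for the first 3 of these. edgeR on 15 samples called 760 higher for H2O2 against control, and 439 and 465 (2 of the 10 higher) for MitoCoat against H2O2. RLE factors and no filter also gave 2 of the 10 higher there, among 233 and 307 genes higher. With MitoCoat-mRNA as reference, 1 of the 10 was higher with mitochondria, and *Txn1* turned to -0.053 (log2). Txnrd1, MitoCoat against mitochondria, turned to 0.0024 (RLE), 0.000902 (DESeq2, 6 samples) and 0.0036 (edgeR, 15 samples) from -0.0015. The replicate block gave 643 and 600 for mitochondria against H2O2 (*Nfe2l2* gained a call, adjusted p = 0.00067) and 5 higher for MitoCoat against mitochondria. For MitoCoat-mRNA against control it gave 2705 and 3051 (1 of the 10 lower, *Gclc* at 0.030, and *Sod2* higher at 0.045). Chosen after seeing the data, the block gave 652 and 489 for mitochondria against MitoCoat-mRNA (3 of the 10 higher and 1 lower). All of these comparisons met the pairing rule. In comparisons that did not meet it, the block gave 394 and 530 for MitoCoat against H2O2 (3 of the 10 higher, *Txnrd1* at adjusted p = 0.0047 and *Nfe2l2* at 0.027). It also gave 0 of the 10 lower for MitoCoat against control (*Gclc* 0.058) and *Keap1* at 0.074 for mitochondria against control. It changed no other call of the 10 genes. Leaving out 1 library gave 145 to 497 genes higher and 231 to 677 lower for H2O2 against control, lowest without control replicate 2, with 3 to 5 of the 10 higher. The ranges were 152 to 233 and 102 to 229 for mitochondria against H2O2, 110 to 219 and 91 to 228 for MitoCoat against H2O2 (1 to 2 of the 10 higher in each), 919 to 1775 and 1218 to 2018 for mitochondria against control, 886 to 1814 and 1269 to 2268 for MitoCoat against control (0 to 1 of the 10 lower) and 509 to 1294 and 737 to 1474 for MitoCoat-mRNA against control. Log2 fold changes that changed sign on leaving out 1 library ranged, for *Sod1*, from -0.0017 to 0.25 (H2O2 against control), -0.20 to 0.034 (mitochondria against H2O2), -0.18 to 0.077 (MitoCoat against H2O2), -0.13 to 0.11 (MitoCoat-mRNA against H2O2), -0.025 to 0.094 (MitoCoat against mitochondria), -0.015 to 0.078 (mitochondria against control) and -0.0030 to 0.11 (MitoCoat against control). For *Sod2* they ranged from -0.015 to 0.0797 (H2O2 against control) and -0.24 to 0.041 (MitoCoat against mitochondria). For MitoCoat against mitochondria they also ranged from -0.034 to 0.19 (*Gclc*), -0.24 to 0.025 (*Nfe2l2*), -0.13 to 0.0904 (*Nqo1*) and -0.069 to 0.11 (*Txnrd1*). The others were *Gclc*, MitoCoat against H2O2 (-0.19 to 0.037), *Hmox1* and *Nqo1*, MitoCoat-mRNA against H2O2 (-0.13 to 0.036 and -0.00088 to 0.22), and *Keap1*, MitoCoat-mRNA against control (-0.039 to 0.063). With 3 libraries a group the median half-width of the 95% CI of the 10 genes was 0.25 (log2) for H2O2 against control; the smallest change that could be called was not tested.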
